A study of Mus musculus with 9 samples.

Results

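The genes described here are 10 SR splicing factors of the mouse, Srsf1, Srsf2, Srsf3, Srsf4, Srsf5, Srsf6, Srsf7, Srsf9, Srsf10 and Srsf11. They were taken by symbol from a table of 38215 genes, and all 10 were among the 14944 genes that passed the filter on low counts. The rule that chose them used symbols and no measured value, but earlier results of these data were known when it was made. Their transcripts were compared between bone marrow cells with Jak2V617F alone and with Jak2V617F and sgZrsr2.

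SR proteins join an RNA recognition domain, which binds short sequences in exons, to a tail rich in arginine and serine (the RS domain), which recruits the core splicing machinery to the nearby splice sites. Kinases of the SRPK family phosphorylate the tail in the cytoplasm, the import receptor transportin-SR (Tnpo3) carries the proteins into the nucleus, and CLK kinases phosphorylate them further there. Many SR genes limit their own output: the protein promotes inclusion of an exon with a stop codon in its own transcript, and the product is removed by nonsense-mediated decay. In myeloid neoplasms SRSF2 is one of the recurrently mutated splicing genes, as is ZRSR2, which recognises the 3′ splice site of the rare U12-type introns.

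RNA was sequenced from LSK cells (lineage-negative, Sca1-positive and Kit-positive), a sorted fraction of marrow in which blood stem cells and early progenitors are found. All mice were C57BL/6J, carried Jak2V617F, the kinase variant common in myeloproliferative neoplasms, and had received tamoxifen, and all sorted cells were positive for GFP and mCherry. The 5 libraries with EV in the title have the genotype Jak2V617F, and the 4 with Zrsr2 in the title have Jak2V617F-sgZrsr2, which the series' design text describes as loss of Zrsr2. The labels spell out neither EV nor sg, give no age, and do not say which promoter or guide was used. The number after m in each title is read here as a mouse. If the samples were not separate animals, the p-values measure only the spread between these samples.

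The libraries held 23238264 to 45585531 expected counts. Zrsr2 was at 50.6 to 62.2 CPM (counts scaled to a common library size, with TMM factors) in the 5 EV libraries and at 31.7 to 44.4 CPM in the 4 sgZrsr2 libraries. Its log2 fold change was -0.46 (SE 0.12, edgeR unadjusted p = 0.00321, adjusted p = 0.714, two-sided exact permutation p = 0.0159). The sgZrsr2 mean was 72.8% of the EV mean. These values are transcript levels and do not give the degree of protein loss. All 9 LSK markers examined were above 1 CPM in at least 1 library, and their sum was 1450 to 2000 CPM (EV) and 1630 to 2030 CPM (sgZrsr2). Of 6 lymphoid markers, Ms4a1, Cd3e and Cd3g stayed under 1 CPM in all libraries. The sums of the 6 ran from 5.37 to 17.4 CPM with EV and from 5.7 to 14.2 CPM with sgZrsr2. Those of 4 monocyte and macrophage markers ran from 166 to 310 and from 228 to 326 CPM. The sums of 9 erythroid markers ran from 16.5 to 63.9 CPM with EV and from 46.9 to 156 CPM with sgZrsr2, and those of 7 mature neutrophil markers from 11.3 to 168 and from 8.56 to 194 CPM. The sums of 7 megakaryocyte markers ran from 121 to 286 CPM with EV and from 215 to 461 CPM with sgZrsr2. The sums of 10 cell cycle genes ran from 2890 to 3440 and from 2500 to 3240 CPM. Mitochondrial genes took 2.41% to 3.36% of the counts with EV and 2.27% to 4.07% with sgZrsr2. In bulk samples, fewer cells of a type and less RNA per cell cannot be told apart.

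In the table's GRCm38 coordinates, Srsf1 (ENSMUSG00000018379) is on chromosome 11 from 88047373 to 88053755 on the plus strand, and Srsf2 (ENSMUSG00000034120) on chromosome 11 from 116849901 to 116853094 on the minus strand. Srsf9 (ENSMUSG00000029538) is on chromosome 5 from 115327177 to 115333080 on the plus strand, and Srsf7 (ENSMUSG00000024097) on chromosome 17 from 80200089 to 80207305 on the minus strand. The annotation GENCODE M21 has the same coordinates for 8 of the 10. It lists 85 transcripts for them, of which 29 are protein-coding, 15 are targets of nonsense-mediated decay and 26 retain an intron. Transcripts of the decay class are annotated in 9 of the 10 genes, all but Srsf10. The values are sums over all transcripts of a gene, so productive and unproductive forms were counted together.

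Levels were compared between members only per length, as CPM per kb of merged exons. Srsf2 had the highest level with EV, 328 ± 72.8 CPM per kb (SD, n = 5), followed by Srsf5 at 183 ± 32.3 and Srsf6 at 131 ± 11.6. Srsf3 (99.7 ± 15.9), Srsf1 (93.8 ± 3.02), Srsf7 (82.8 ± 9.60), Srsf4 (64.5 ± 9.51) and Srsf9 (56.1 ± 6.84) made up the middle, and Srsf11 (42.8 ± 8.66) and Srsf10 (33.4 ± 1.96) were lowest. With EV the ranges over mice were apart for 1 of 9 neighbouring pairs, Srsf2 and Srsf5, and overlapped for the other 8. With sgZrsr2 the order was the same except that Srsf4 (67.7 ± 5.74) and Srsf7 (67.2 ± 3.33) changed places, with overlapping ranges (n = 4), and 5 of 9 neighbouring pairs had ranges that were apart. Merged exons include retained introns and count long rare transcripts in full. With the longest protein-coding transcript as the length, Srsf2 (512 ± 113) and Srsf5 (465 ± 82.2) still led with EV, Srsf11 moved from rank 9 to rank 6 at 116 ± 23.5, and Srsf1 from rank 5 to rank 8 at 99.9 ± 3.22. With sgZrsr2 this length put Srsf5 (466 ± 47.1) before Srsf2 (402 ± 35.2), with overlapping ranges, and in each group 4 of 9 neighbouring pairs had ranges that were apart.

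**Figure D1:**
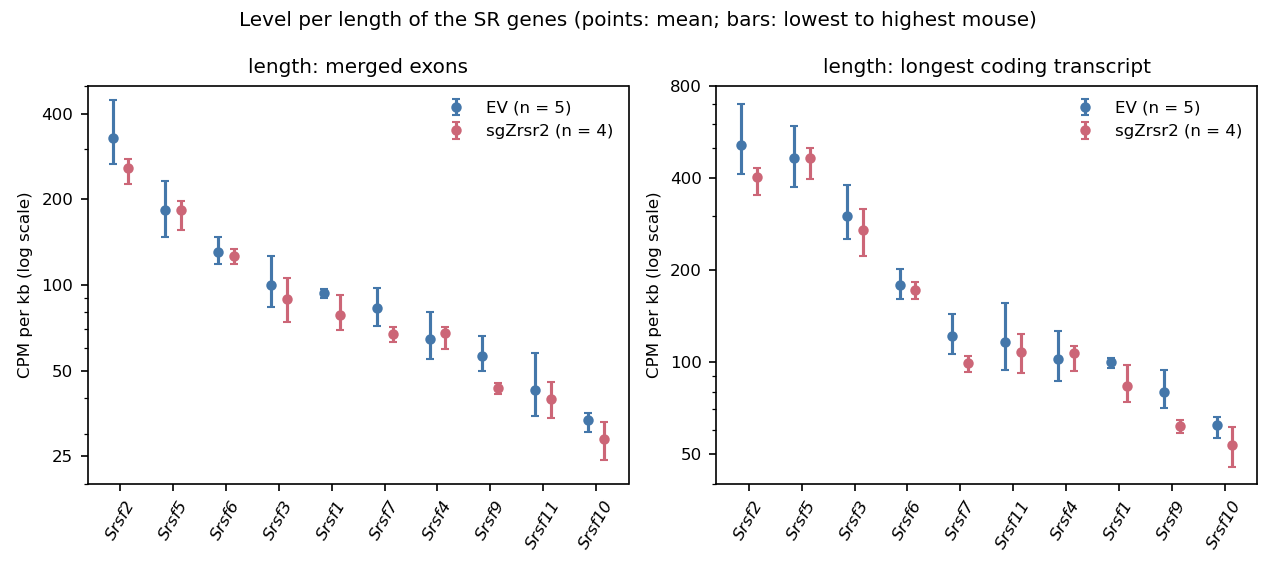
Level of the 10 SR genes in CPM per kb, on a log axis, with merged exons (left) or the longest protein-coding transcript (right) as the length; points are means, bars run from the lowest to the highest mouse, with 5 EV (blue) and 4 sgZrsr2 (red) libraries. Srsf2 and Srsf5 lead with EV in both panels and Srsf10 is last.

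When sgZrsr2 was tested against EV with edgeR, 0 of the 10 genes reached the threshold of 0.05 after Benjamini-Hochberg adjustment, in either direction, and neither did any other gene: 0% of the 14944 genes tested were called higher and 0% lower. The smallest adjusted p of all genes was 0.714. At an unadjusted p under 0.05 there were 3 members, Srsf9, Srsf7 and Srsf1, all with lower means with sgZrsr2, where 2.98% of all genes tested were lower and 3.87% higher by that rule. The DESeq2 Wald test called 0 members and 26 of all genes past the adjusted threshold (0.154% of 16854 genes), and 4 members had an unadjusted p under 0.05 in it, where 6.17% of 22285 genes did. The fitted log2 fold change was below 0 for 8 of the 10 members, where 51.5% of all genes were below 0. The median over the 10 was -0.19, between -0.37 (Srsf9) and 0.07 (Srsf4), and the median over all genes was -0.01, with quartiles of -0.18 and 0.18. The groups did not overlap in 2 members, Srsf9 and Srsf7, where 1.32% of all genes were lower without overlap.

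**Figure D2:**
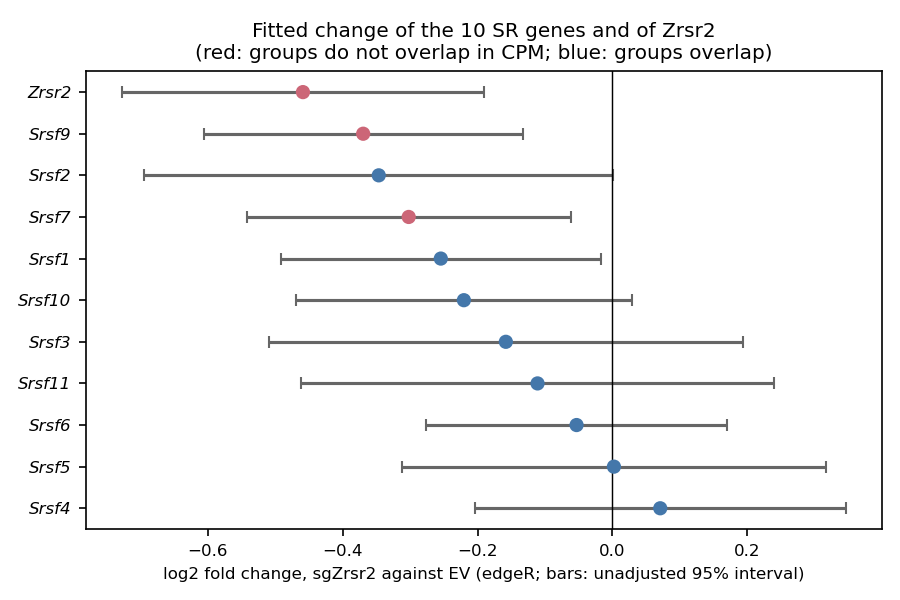
Log2 fold change of sgZrsr2 against EV for the 10 SR genes and for Zrsr2 (edgeR; 5 and 4 libraries), with unadjusted 95% intervals; red points mark genes whose groups do not overlap in CPM. The intervals of Srsf9, Srsf7, Srsf1 and Zrsr2 lie below 0, and no SR gene passed the adjusted threshold.

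Srsf9 and Srsf1 are close relatives, each with a pair of RNA recognition domains and a short RS tail, and Srsf1 is the founding member of the family, an activator of exons with purine-rich enhancers. Srsf9 was at 82.4, 86.6, 109, 99.3 and 85.7 CPM in mice 1 to 5 of the EV group and at 72.0, 71.8, 68.1 and 74.96 CPM in mice 1, 2, 3 and 5 of the sgZrsr2 group. The highest of the 4 sgZrsr2 values was under the lowest of the 5 EV values, and the sgZrsr2 values were close to one another. The means were 92.7 ± 11.3 (SD, n = 5) and 71.7 ± 2.82 CPM (SD, n = 4), and the second was 77.4% of the first. The log2 fold change was -0.37 (SE 0.11, unadjusted 95% interval -0.61 to -0.13), with an unadjusted edgeR p of 0.00566, an adjusted p of 0.714 and a two-sided exact permutation p of 0.0159, the smallest that 5 against 4 samples allow. The exact permutation p given for single genes are not adjusted over the 10. These values rest on 1618 to 4473 counts per library, whole numbers in all 9. RSEM divides reads that match several genes, which leaves counts that are not whole, and the counts of Srsf2, Srsf3, Srsf4, Srsf5 and Srsf10 were whole in 0 of 9 libraries, so their values carry that uncertainty.

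Srsf1 was at 521, 542, 514.5, 552 and 550.1 CPM in the EV mice and at 409, 397, 464 and 526.5 CPM in mice 1, 2, 3 and 5 of the sgZrsr2 group. The EV libraries were close together, and the sgZrsr2 libraries ran from well below them to inside their range, which mouse 5 reached. The means were 536 ± 17.3 and 449 ± 59.2 CPM. The fitted log2 fold change was -0.25 (SE 0.11, edgeR unadjusted p = 0.0378, adjusted p = 0.714; exact permutation p = 0.0476). Without 1 library the log2 fold change ran from -0.21 (without sgZrsr2 mouse 2) to -0.34 (without sgZrsr2 mouse 5), and it passed the unadjusted threshold in 3 of the 9 such fits. With sgZrsr2 mice 1 and 2 averaged it was -0.21 and did not pass it.

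Srsf4, Srsf5 and Srsf6 form the other group with a pair of RNA recognition domains, and have long RS tails. Srsf5 was at 768, 719, 925, 652 and 585 CPM in the EV libraries and at 752.5, 765, 785 and 622 CPM in the sgZrsr2 libraries. The sgZrsr2 range lay inside the EV range, with means of 729.9 ± 129 and 731 ± 73.9 CPM and a log2 fold change of 0.00 (SE 0.14). The unadjusted 95% interval, -0.31 to 0.32, leaves room for a difference of either sign. Srsf6 was at 568 to 709 CPM in the EV libraries and at 569 to 644 CPM in the sgZrsr2 libraries (log2 fold change -0.05, SE 0.10, interval -0.28 to 0.17). Srsf4 was at 196 to 285 CPM in the EV libraries and at 211 to 254 CPM in the sgZrsr2 libraries (log2 fold change 0.07, SE 0.12, interval -0.20 to 0.35), and without EV mouse 3 its log2 fold change was 0.15. With limma-voom and sample weights Srsf4 was at 0.21 (unadjusted p = 0.0399, adjusted p = 0.271), in a fit where 17.1% of all genes had an unadjusted p under 0.05. In Srsf6 and Srsf4 the sgZrsr2 range lay within the EV range, and the adjusted p of the 3 genes in the test over all libraries ran from 0.894 to 0.996 (edgeR).

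Srsf2 has a single RNA recognition domain that binds both C-rich and G-rich exon motifs. It was at 869.6, 857, 1325, 1020 and 785 CPM in mice 1 to 5 of the EV group and at 768, 822.5, 669.5 and 797 CPM in mice 1, 2, 3 and 5 of the sgZrsr2 group. EV mouse 3 was far above the rest, and EV mouse 5 lay inside the sgZrsr2 range, so the groups overlapped. The means were 971.5 ± 216 and 764 ± 66.9 CPM, the widest relative spread among EV mice of the 10 genes at 22.2% of the mean. The log2 fold change was -0.35 (SE 0.16, edgeR unadjusted p = 0.0508, adjusted p = 0.714; exact permutation p = 0.0476), and without EV mouse 3 it was -0.22. The gene overlaps Mettl23 over 3194 bases and Mfsd11 over 655 bases on the opposite strand. No source used here says whether reads were counted by strand, so reads of the overlapping stretches cannot be told apart. Both neighbours were at 18.6 to 22.6 CPM in either group, so they were low beside Srsf2.

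Srsf3 and Srsf7 each have a single RNA recognition domain, to which Srsf7 adds a zinc knuckle, and both also act as adaptors for the mRNA export receptor Nxf1. Srsf7 was at 285, 279, 345, 307 and 254 CPM in mice 1 to 5 of the EV group and at 252, 241, 223 and 238 CPM in mice 1, 2, 3 and 5 of the sgZrsr2 group. The highest sgZrsr2 library was below the lowest EV library, by a narrow gap: the lowest EV value was 254.4 and the highest sgZrsr2 value 252.0 CPM. The means were 294 ± 34.1 and 238.5 ± 11.8 CPM, 81.1% of the EV level. The log2 fold change was -0.30 (SE 0.11, unadjusted 95% interval -0.54 to -0.06; edgeR unadjusted p = 0.0183, adjusted p = 0.714; exact permutation p = 0.0159). Srsf7 rests on 5660 to 13818 counts per library, whole in 8 of 9.

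Srsf3 was at 777, 737, 996, 767 and 660.3 CPM in the EV libraries and at 833.5, 818, 584 and 588 CPM in the sgZrsr2 libraries. The sgZrsr2 libraries split, with mice 1 and 2 above 4 of the 5 EV libraries and mice 3 and 5 below all 5. The log2 fold change was -0.16 (SE 0.16, interval -0.51 to 0.19, edgeR adjusted p = 0.807), and without EV mouse 3 it was -0.07.

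The stretch of 150 bases before the RefSeq start (GRCm38.p6) is shown for Srsf9 and Srsf7, because these were the members whose groups did not overlap, and for Srsf6 as one of the members with the smallest difference. Capitals mark the GC box GGGCGG or its reverse complement CCGCCC, letters that the Sp and Klf factors bind. Srsf9 is read on the plus strand of chr5:115327027-115327176, Srsf7 on the minus strand of chr17:80207306-80207455 and Srsf6 on the plus strand of chr2:162931358-162931507.
Srsf9: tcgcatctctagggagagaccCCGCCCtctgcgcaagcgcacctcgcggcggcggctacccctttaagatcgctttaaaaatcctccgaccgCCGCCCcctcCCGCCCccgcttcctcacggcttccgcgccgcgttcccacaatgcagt
Srsf7: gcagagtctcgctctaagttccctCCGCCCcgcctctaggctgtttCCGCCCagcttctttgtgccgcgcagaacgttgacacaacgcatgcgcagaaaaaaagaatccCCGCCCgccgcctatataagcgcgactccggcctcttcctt
Srsf6: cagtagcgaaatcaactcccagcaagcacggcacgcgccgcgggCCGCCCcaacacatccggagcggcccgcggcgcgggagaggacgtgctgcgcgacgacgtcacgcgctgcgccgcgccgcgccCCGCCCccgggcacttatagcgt
Srsf9 and Srsf7 each hold 3 GC boxes and Srsf6 holds 2, so the motif is in all 3 windows shown. Srsf5 and Srsf4, also with small differences (log2 fold change 0.00 and 0.07), each hold 3 as well in windows not shown. Of the 10 members 9 hold at least 1 in this window, where 28.6% of 32817 such windows of all RefSeq genes do. The other motifs searched on both strands were CCAAT (3 of 10 members; 24.5% of all windows), CCGGAAG (2 of 10; 5.53%), CACGTG (0 of 10; 4.30%) and TATAAA (2 of 10; 7.58%). The members' windows were richer in G and C, 59.3% to 80.0%, than the median window at 54.0%, which bears on any match to a GC-rich motif.

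Srsf10 and Srsf11 are atypical members. Srsf10 represses splicing when it loses its phosphates, as after heat shock, and Srsf11 binds other splicing factors through its RS domain. Srsf10 was at 241, 248.7, 237, 232 and 212 CPM in the EV libraries and at 216, 231, 170.3 and 187 CPM in the sgZrsr2 libraries. Mice 3 and 5 of the sgZrsr2 group lay below all other libraries, and mice 1 and 2 inside the EV range. The log2 fold change was -0.22 (SE 0.11, edgeR unadjusted p = 0.077, adjusted p = 0.714; exact permutation p = 0.0635), and without sgZrsr2 mouse 3 it was -0.15. Srsf11 was at 332, 343.5, 486, 352 and 293 CPM in the EV libraries and at 369, 386, 297 and 287 CPM in the sgZrsr2 libraries. Its groups overlapped almost fully (log2 fold change -0.11, SE 0.16, interval -0.46 to 0.24, edgeR adjusted p = 0.864), and without EV mouse 3 the log2 fold change was 0.01.

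**Figure D3:**
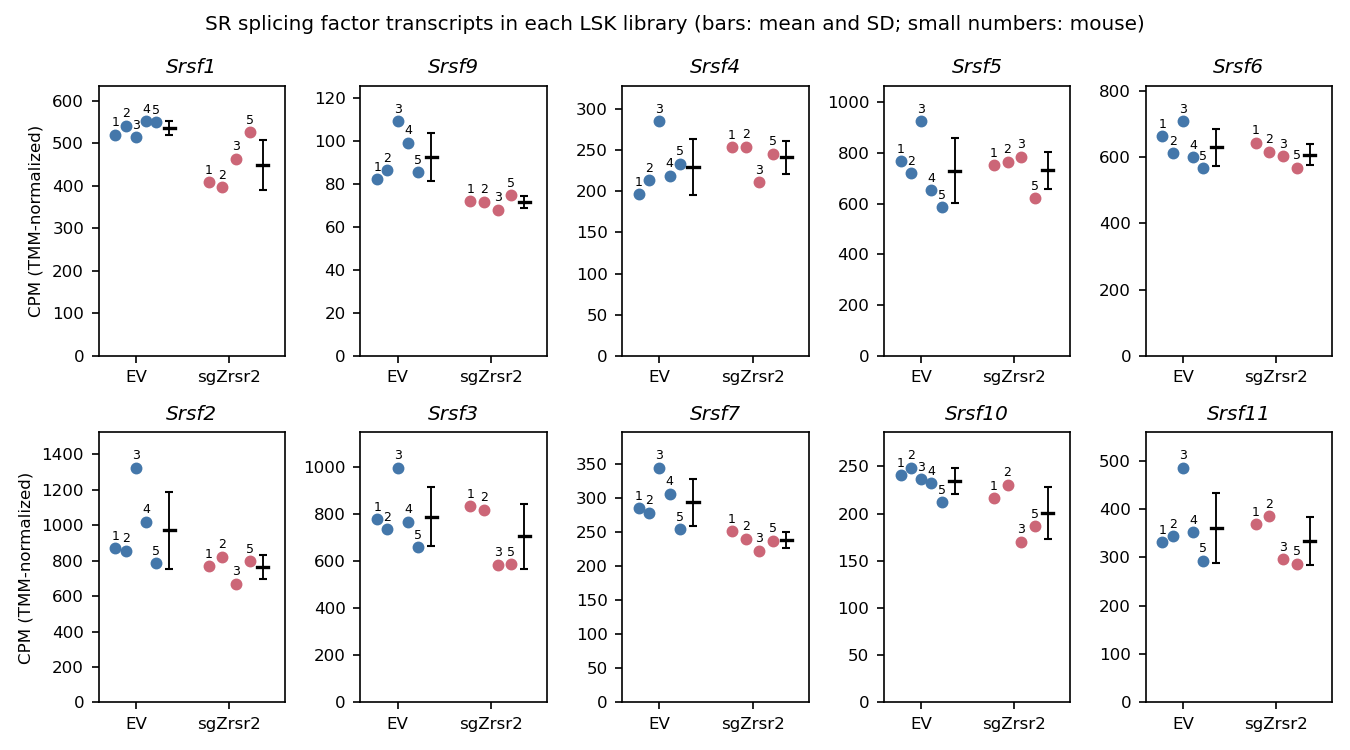
CPM of each SR gene in each library (y axis from 0), with EV in blue and sgZrsr2 in red, the mouse number above each point, and the mean and SD beside each group. Srsf9 and Srsf7 have groups that do not overlap, and EV mouse 3 is the highest library in 8 of the 10 panels.

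The libraries differed within the groups by as much as between them in most members. EV mouse 3 had the highest level of all 9 libraries in 8 of the 10 genes, all but Srsf1 and Srsf10. This library had the lowest TMM factor, 0.894 against 0.967 to 1.07 in the others, which raises its CPM. SR transcripts also took the largest share of its counts before any scaling, 0.53% against 0.442% to 0.482% in the other EV libraries and 0.432% to 0.445% in the sgZrsr2 libraries. With CPM from library totals alone 2 members, Srsf9 and Srsf7, kept groups that did not overlap. Srsf9 was at 83.9 to 98.2 against 69.5 to 78.3 CPM and Srsf7 at 266 to 308 against 233 to 248 CPM. The share of all genes without overlap was not counted with this scaling.

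At the other end, sgZrsr2 mouse 3 was the lowest library in 5 of the 10 genes. The 3 lowest libraries were EV mouse 5 and sgZrsr2 mice 3 and 5 for Srsf3, Srsf10 and Srsf11. The same libraries had the highest levels of the erythroid gene Car1, 25.4, 39.3 and 35.5 CPM in this order, against at most 0.422 CPM in the other 6, and the highest sums of the 9 erythroid markers, 63.9, 156 and 77.2 CPM. They also had the highest sums of the 7 megakaryocyte markers, 286, 355 and 461 CPM against 121 to 276 CPM in the others, and the lowest mitochondrial shares, 2.41%, 2.35% and 2.27% against 2.88% to 4.07%. The part of these differences in the levels of Srsf3, Srsf10 and Srsf11 was not tested. Without the 3 libraries, leaving 4 EV and 2 sgZrsr2, the log2 fold changes were 0.02 for Srsf3, -0.09 for Srsf10 and 0.00 for Srsf11. The removed libraries were the lowest for these 3 genes and included more sgZrsr2 than EV libraries. Their removal moves these fold changes up by construction, so this fit cannot show a cause. In the same fit the log2 fold changes were -0.39 for Srsf9, -0.39 for Srsf1 and -0.30 for Srsf7. That was no smaller than with all libraries for Srsf9 and Srsf1 and almost the same for Srsf7. The unadjusted p of Srsf7 was then 0.0675 (edgeR). The median over the 10 was then -0.06.

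**Figure D4:**
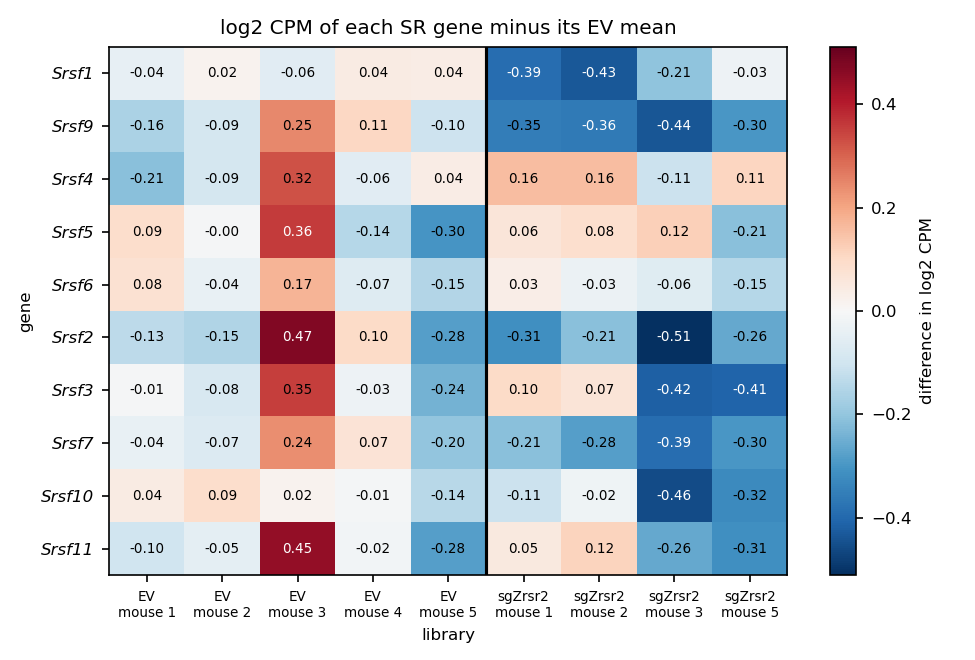
Difference in log2 CPM between each library and the EV mean of the same gene, for 10 SR genes (rows) and 9 libraries (columns, EV left of the line). Srsf9 and Srsf7 are below 0 in all 4 sgZrsr2 libraries (-0.44 to -0.30 and -0.39 to -0.21). So are Srsf2 (-0.51 to -0.21), Srsf1 (-0.43 to -0.03) and Srsf10 (-0.46 to -0.02). Srsf3 is above 0 in mice 1 and 2 and at -0.42 and -0.41 in mice 3 and 5. EV mouse 3 stands out with 0.17 to 0.47 in 8 genes.

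The makeup of the SR pool was described by each member's share of the counts of all 10, which does not depend on the scaling of a library but does on gene length and on the other members. Srsf2 gave 19.8% ± 1.86 of the pool with EV (SD, n = 5) and 17.6% ± 1.28 with sgZrsr2 (SD, n = 4), and Srsf5 gave 14.9% ± 1.16 and 16.8% ± 1.76. Srsf7 was the 1 member whose share did not overlap between the groups, at 5.82% to 6.39% with EV and 5.23% to 5.75% with sgZrsr2. For this measure there was no count over all genes to set beside it. The shares of Srsf9 overlapped, at 1.74% to 2.07% and 1.56% to 1.81%, with EV mouse 1 below sgZrsr2 mouse 5. Srsf4 had a share of 4.73% ± 0.508 and 5.55% ± 0.311, with overlapping ranges.

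Genes that act with or against SR proteins were read in the same fit from lists written from general knowledge, and 0 genes of any of them passed the adjusted threshold in either direction. Of 10 genes for SR kinases and the import receptor, 0 had an unadjusted p under 0.05, where 6.85% of all genes did. The log2 fold change was above 0 for 7 and below 0 for 3, where 51.5% of all genes were below 0, and its median was 0.06. The smallest p in this list belonged to the muscle kinase Srpk3, near the detection limit at 0.409 ± 0.212 and 0.197 ± 0.138 CPM, then to the kinases Dyrk1a (125.5 ± 19.9 and 147 ± 32.4 CPM) and Clk3 (59.3 ± 6.37 and 65.7 ± 7.09 CPM), with edgeR adjusted p of 0.742 to 0.755.

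Of 24 further proteins with RS domains, the median log2 fold change was 0.09. At an unadjusted p under 0.05, 2 were lower and 2 higher, where 2.98% and 3.87% of all genes tested were. The lower ones were the SR-like splicing activators Tra2b, with means of 441 ± 84.8 (EV) and 313 ± 48.5 CPM (sgZrsr2) (log2 fold change -0.49, SE 0.17), and Tra2a, at 146 ± 18.3 and 119 ± 9.04 CPM (-0.29, SE 0.12). Both had groups that overlapped, Tra2b because EV mouse 5 was at 309 CPM. Sfswap, a splicing regulator, was at 69.2 ± 6.33 and 82.5 ± 6.40 CPM (0.25, SE 0.10), also with overlap. The edgeR adjusted p was 0.714 for each of these 3. The fourth gene at this p was Srrm2, a large protein of nuclear speckles, at 980 ± 121 and 1190 ± 137 CPM (0.28, SE 0.12), named after its values were seen to complete the count of 4. Srek1 and Son were the 2 genes of the list whose groups did not overlap, both higher with sgZrsr2, where 1.75% of all genes tested were higher without overlap. Srek1 was at 92.8 ± 4.24 and 107.5 ± 10.4 CPM, and Son, the scaffold protein of nuclear speckles, at 708 ± 47.0 and 812 ± 27.5 CPM. Both were named after their values were seen, with edgeR adjusted p of 0.714.

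The hnRNP proteins often oppose SR proteins at exons. Of 25 listed hnRNP genes, 23 were below 0 and 2 above, where 51.5% of all genes tested were below 0. The median log2 fold change was -0.11. At an unadjusted p under 0.05, 1 was lower, Hnrnpu, where 2.98% of all genes tested were lower. Its means were 1089 ± 66.8 (EV) and 920.3 ± 111 CPM (sgZrsr2) (log2 fold change -0.24, SE 0.11, edgeR adjusted p = 0.714). Hnrnpf (1106 ± 143 and 948.5 ± 88.0 CPM) and Hnrnpab (1140 ± 298 and 915 ± 180 CPM) followed, with wide spreads between mice. Without EV mouse 5 and sgZrsr2 mice 3 and 5 the median of this list was -0.02. Of 8 factors of nonsense-mediated decay, 0 had an unadjusted p under 0.05, where 6.85% of all genes tested did. Of the 8, 6 were above 0, where 51.5% of all genes tested were below 0, and the median was 0.06. The endonuclease Smg6 had the smallest p of them (101 ± 11.2 and 119 ± 7.76 CPM, log2 fold change 0.23, SE 0.11, edgeR adjusted p = 0.714). Its groups did not overlap, where 1.75% of all genes tested were higher without overlap. The kinase Smg1 (284 ± 41.1 and 334 ± 31.1 CPM) and Upf2 (86.6 ± 9.56 and 98.2 ± 20.3 CPM) followed. Without EV mouse 5 and sgZrsr2 mice 3 and 5 the median of the decay factors was 0.20.

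**Figure D5:**
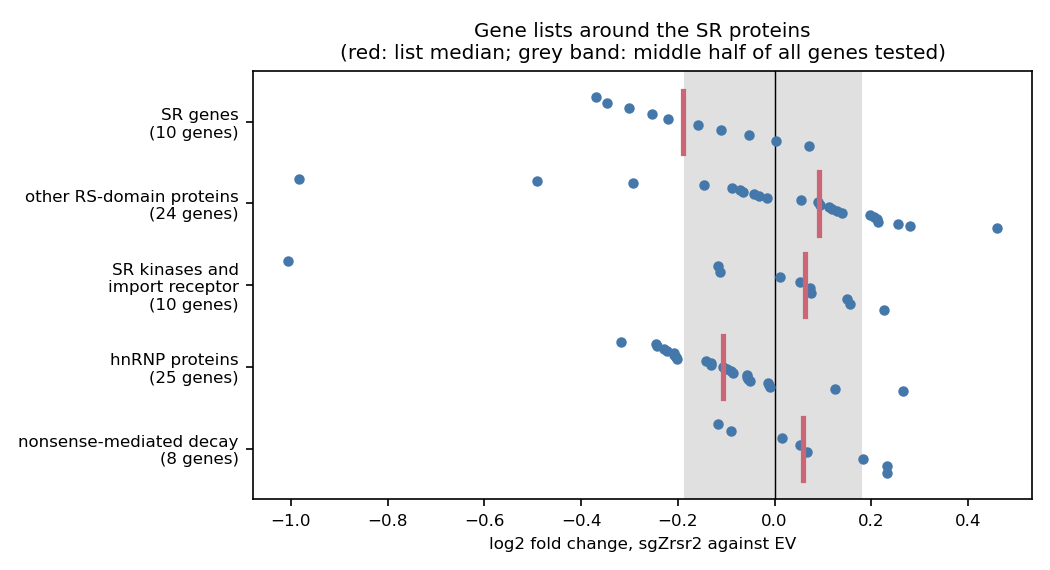
Log2 fold change of sgZrsr2 against EV for each gene of the SR family and of 4 lists around it (5 and 4 libraries), with the list median in red and the range between the quartiles of all 14944 genes in grey. The median is -0.19 for the SR genes and -0.11 for the hnRNP genes, and between 0.06 and 0.09 for the other 3 lists; no gene shown passed the adjusted threshold.

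Outside the members, the 5 genes whose log2 CPM followed the mean of the 10 members most closely over the 9 libraries were Azin1 (Pearson r = 0.994), the inhibitor of antizyme in polyamine metabolism, Nampt (0.984), an enzyme of NAD salvage, Rapgef5 (0.979), Calm2 (0.978), which encodes calmodulin, and Cebpz (0.975). These r describe 9 points that share the libraries and their scaling, and the genes were picked as the closest of all genes tested. In all 5 genes EV mouse 3 was the highest library, as it was for 8 of the 10 members. Azin1 was at 308 CPM there and at 109 to 197 CPM in the other 8 libraries, and Nampt at 173 CPM against 62.9 to 99.0 CPM.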

How the data were processed

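The deposited values are RSEM expected counts per gene, made by the authors with RSEM 1.2.30 after cutadapt 1.11 on GRCm38, per the submitters' processing notes; the aligner, annotation and strand setting are not given in the sources used here. Per the labels' protocols, polyadenylated RNA was selected from 5 ng of total RNA and amplified by PCR, which can add spread between libraries. Expected counts, of which 9.78% to 13.3% per library were not whole, were rounded, filtered with filterByExpr (minimum count 10, minimum total 15; 14944 genes, 99.93% of counts), scaled with TMM and tested with edgeR 4.0.16 in R 4.3.3 (glmQLFit, glmQLFTest, Benjamini-Hochberg over all genes); the test was checked on simulated counts. The SE is the log2 fold change over the square root of F. Single CPM values were compared by two-sided exact permutation over 126 splits. Log2 CPM used a prior count of 2.

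The members and lists were chosen with earlier results of these data known. Of each list the 3 genes with the smallest p were named. All listed genes were in the table, 5 of them by gene ID under an older symbol. Lengths came from GENCODE M21, and promoter windows from RefSeq (GRCm38.p6; all 10 members matched, first window listed for each). Depth of 23238264 to 45585531 counts limits precision by counting error only. Alternatives included DESeq2 1.42.0 and limma 3.58.1. The deviations of same-numbered mice had r = -0.227, -0.0904, -0.404 and 0.369, within the -0.407 to 0.523 of mice with other numbers. The labels state no pairing, so no block was used in the main fit. The counts of sgZrsr2 mice 1 and 2 differed by more than sampling noise (chi-square 9.32 per degree of freedom, against 59.1 to 126 for the group's other pairs), and both were kept. EV mice 1 and 2 were likewise the closest pair of their group (16.6, against 54.9 to 164 for its other pairs).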

Additional observations from a re-analysis of the deposited data

Results flagged for a closer look

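Of 26 sets of values (10 SR genes, Zrsr2, the mean of the members and the library total, in each group), 1 held a library far from the rest, where chance gives about 1.3. Zrsr2 was at 62.2 CPM in EV mouse 3 and at 50.6 to 51.9 CPM in the other 4 EV libraries. The same library was the highest in 8 of the 10 SR genes and had the lowest TMM factor, 0.894; the part of the scaling in its values was not tested.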

How the results depend on the processing

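No SR gene passed the adjusted threshold in any of 12 alternatives or of 9 fits with 1 library removed, and the median of the 10 stayed below 0, at -0.2368 to -0.1131 without a library and closest to 0 at -0.06 without EV mouse 5 and sgZrsr2 mice 3 and 5 together. Over all genes, DESeq2 called 26 and averaging sgZrsr2 mice 1 and 2 called 1; the fits without a library called 0 to 0. Srsf9 had an unadjusted p under 0.05 in 12 of 12 alternatives and 9 of 9 fits without a library (log2 fold change -0.41 to -0.27, adjusted p 0.183 to 0.9998), and Srsf7 in 10 and 9 (-0.35 to -0.21, adjusted p 0.222 to 0.9998). Srsf1 did in 8 and 3, with -0.39 to -0.21. The count of members at this p was 5 with upper-quartile factors (6.99% of all genes), 4 with limma-voom, Srsf4 (0.21) among them (17.1%), and 2 to 3 without a library (4.12% to 8.73%). With the mouse number as a replicate block it was 1, Srsf9 (2.28%). The labels do not say whether equal numbers mark paired samples. The cause of these changes in the count was not tested. The sign changed for Srsf5 with RLE factors (-0.00045), no filter (-0.0027), the replicate block (-0.022), sgZrsr2 mice 1 and 2 averaged (-0.021) and without the 3 libraries (-0.0064), and it ran from -0.066 to 0.097 without 1 library. It changed for Srsf3 with limma-voom and sample weights (0.016) and without the 3 libraries (0.018), and for Srsf11 with the same settings (0.061 and 0.0026) and without EV mouse 3 (0.012; -0.19 to 0.012 without 1 library). Scaling by library totals and the length by coding transcript were added after the data were examined. Of 252 recomputed list values 226 stayed close to the main value and 26 moved. At this depth the spread between mice, not counting error, limits the members' precision.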

Other observations

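Srsf9 lies 26177 bases from Dynll1, a dynein light chain gene that had the smallest p of all genes tested. Dynll1 had means of 130 (EV) and 69.7 CPM (sgZrsr2) (log2 fold change -0.90, SE 0.16, edgeR adjusted p = 0.714). Its groups did not overlap, where 1.32% of all genes tested were lower without overlap. Dynll1 was looked at after the values were seen. All 7 tested genes within 100 kb of Srsf9 had a log2 fold change below 0, where 51.5% of all genes tested did. Their values ran from -0.90 for Dynll1 to -0.02 for Triap1, which lies 8144 bases from Srsf9. Only Dynll1 of them had an unadjusted p under 0.05, where 6.85% of all genes tested did, and the other neighbours were at 0.0835 to 0.938 (edgeR). Gatc, which lies 161 bases past the end of Srsf9 on the opposite strand, was at 28.2 and 24.8 CPM (-0.18, SE 0.11), and Coq5 at 32.4 and 27.4 CPM (-0.24, SE 0.13). Around Srsf7, 2 of 4 tested genes within 100 kb were below 0, near the 51.5% of all genes tested. At an unadjusted p under 0.05 there was 1 of the 4, Gemin6, where 2.98% of all genes tested were lower by that rule. Gemin6 is a subunit of the SMN complex that assembles spliceosomal particles. Its means were 17.4 (EV) and 12.1 CPM (sgZrsr2) (-0.52, SE 0.19, edgeR unadjusted p = 0.0182, adjusted p = 0.714), with groups that overlapped.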
